A study of Mus musculus with 29 samples.

Results

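CTCF and the cohesin complex were followed as 9 genes across sorted cells of the mouse retina: *Ctcf*, *Rad21*, *Smc1a*, *Smc3*, *Stag1*, *Stag2*, *Nipbl*, *Pds5a* and *Pds5b*. They were taken by symbol from a table of 24062 genes, in which each was found once, and all 9 were among the 14024 genes with enough reads to be tested. Expression was measured by RNA-seq in 15 libraries, 3 for each of 5 populations, which were bipolar cells of all types (pan-BC), their ON and OFF divisions (ON-BC, OFF-BC), rods and blue cones. Chromatin accessibility was measured by ATAC-seq in 12 libraries, 2 for each of these populations and for green cones, and peaks were also listed for 2 further libraries of green cones, which had passed the sorter again. The pan-BC used for RNA-seq were from *Otx2*-GFP+/- mice, in which a GFP cassette sits at the C-terminal end of 1 *Otx2* allele, at postnatal day 44 to 47. ON-BC, OFF-BC and every bipolar library of ATAC-seq were from *Otx2*-GFP+/-; *Grm6*-YFP+/+ mice at day 42 to 48, in which the *Grm6* promoter drives YFP in ON-BC. OFF-BC were the cells without YFP and were passed through the sorter again. Rods were from *Nrl*-eGFP mice, green cones from *Opn1mw*-GFP mice, and the blue cones were photoreceptors of *Nrl*-eGFP;NrlKO mice, which stand in for blue cones. All photoreceptors were from day 56 and had been collected for an earlier study. Cell class, genotype, study and age therefore cannot be told apart in any comparison of bipolar cells with photoreceptors. Between rods and blue cones, cell type and the *Nrl* knockout cannot be told apart. In RNA-seq, pan-BC also differ in genotype from ON-BC and OFF-BC.

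Cohesin is a ring of the proteins SMC1A, SMC3 and RAD21 that encircles DNA, to which either STAG1 or STAG2 is bound. NIPBL, with its partner MAU2, loads the ring and drives it to extrude loops, PDS5A and PDS5B bind it and act in its release and its stabilization, and WAPL takes it off chromatin. CTCF, a zinc finger protein, binds DNA at a long directional motif and halts the moving ring, so that CTCF sites come to lie at the bases of loops and at the borders of domains. In dividing cells cohesin also holds sister chromatids together, a task that adult neurons no longer have. Rods of the mouse are known for an inverted nucleus, in which heterochromatin gathers in the centre.

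Values are normalized counts, which are reads divided by 1 size factor per library. A library held 12329548 to 26266746 counted reads, and the 9 genes had 211 to 5393 reads in a library (median 1166). Differences are on the scale of log2(normalized count + 1), the first population minus the second, with the standard error (SE) from a limma fit over all genes. A gene was called at a Benjamini-Hochberg adjusted p below 0.05, either against no difference, which is meant where nothing else is said, or against 2-fold. The paper calls the replicates biological, but the labels number them without saying which animals they came from. The p-values therefore measure the spread between these libraries. These are bulk samples, in which fewer cells of a type and less RNA per cell cannot be told apart. The deleted gene *Nrl* was at 11476, 16599 and 14469 in rods and at 657, 764 and 486 in blue cones. Summed bipolar markers (10 genes) were 118816 to 166458 in bipolar libraries and 8272 to 38071 in photoreceptor libraries. Some bipolar libraries held photoreceptor RNA. The blue cone pigment gene *Opn1sw* had a mean in pan-BC of 3.31% of that in blue cones. The third OFF-BC library stood apart, with *Opn1sw* at 55813 against 4477 and 4314, and *Isl1*, a gene of ON-BC, at 1329 against 343 and 162. Summed amacrine markers (6 genes) were 318 to 1070.5 in bipolar libraries and 1371 to 2448 in photoreceptor libraries, and their part in the differences below was not tested.

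Among the 9 genes, *Stag2* alone was called past 2-fold between bipolar cells and photoreceptors. *Stag2* encodes the subunit that alternates with STAG1 on the ring (GRCm38 chrX:42149412-42277186, plus strand). Its normalized count was 683, 690.0 and 679 for pan-BC, 836, 821 and 698 for ON-BC, 503, 638 and 694 for OFF-BC, 3837, 5428 and 4453 for rods and 3032, 2636 and 2981 for blue cones. Every photoreceptor library lay above every bipolar library, with the lowest blue cone library over 3 times the highest ON-BC library. The mean was 684 ± 5.55 for pan-BC (SD, n = 3), 4573 ± 802 for rods and 2883 ± 216 for blue cones. Pan-BC minus rods was -2.72 (SE 0.14, limma adjusted p 3.83e-09 against 2-fold), which is 6.69-fold higher in rods. Against blue cones the difference was -2.07 (SE 0.14, limma adjusted p 2.35e-06 against 2-fold), 4.22-fold higher in blue cones. Rods were above blue cones by 0.65 (SE 0.14, limma adjusted p 0.00056). The level of *Stag2* in pan-BC was 14.96% of that in rods and 23.7% of that in blue cones, where *Opn1sw* stood at 3.31%. *Stag2* and *Smc1a* are X-linked, and pan-BC libraries differed in sex, since *Xist*, the RNA made by the inactive X, was at 8239, 7679.7 and 35.5, and the Y-linked *Ddx3y* at 4.25, 6.05 and 1571. *Stag2* was at 679 to 690.0 in these libraries. *Xist* also varied in rods, at 1738, 841 and 1771, and in blue cones, at 1071, 684 and 174. The part of sex in the differences was not tested.

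**Figure D1:**
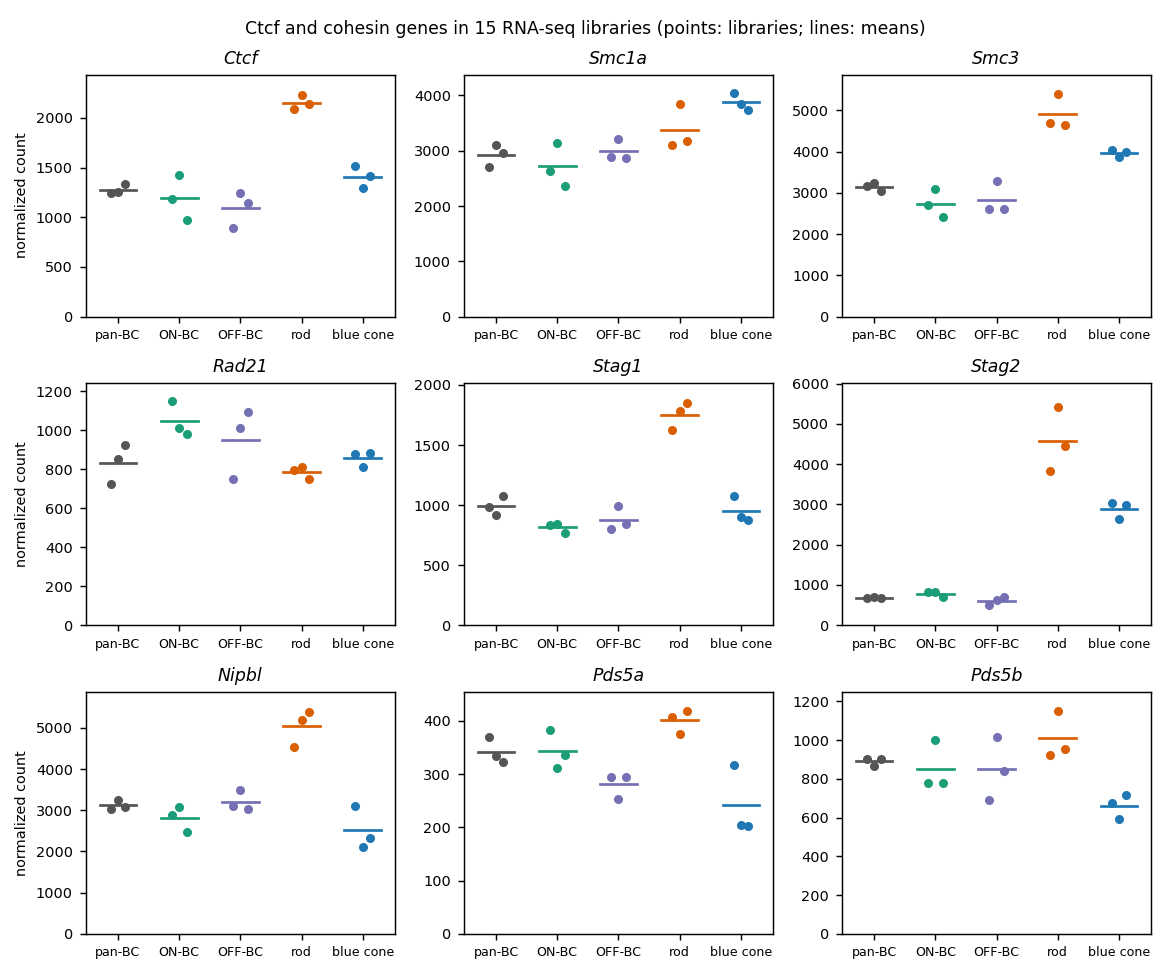
Normalized counts of the 9 genes (vertical axes, from 0) in the 3 RNA-seq libraries of each population, with points for libraries and lines for means. *Stag2* is at 503 to 836 in the 9 bipolar libraries and at 2636 to 5428 in the 6 photoreceptor libraries, while *Rad21* ranges from 726 to 1151 over all 15.

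*Stag1*, which encodes the alternative to STAG2 (chr9:100643448-100958544, plus strand), followed another pattern. It was at 982, 921 and 1072 for pan-BC, 834, 847 and 767 for ON-BC, 800.2, 995 and 844 for OFF-BC, 1627, 1780.3 and 1848 for rods and 1072, 903 and 873 for blue cones. Only rods stood above all other libraries, while blue cones overlapped pan-BC and OFF-BC and lay above ON-BC. The difference of pan-BC from rods was -0.82 (SE 0.11, limma adjusted p 3.68e-06), and that of rods from blue cones 0.89 (SE 0.11, limma adjusted p 3.94e-06). Between pan-BC and blue cones it was 0.07 (95% interval -0.17 to 0.30). From rods, ON-BC differed by -1.10 (SE 0.11, limma adjusted p 0.38 against 2-fold), with means of 816 and 1752, a 2.15-fold ratio that was not called past 2-fold.

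Levels can be compared between genes per kilobase of annotated exon, taking reads to be spread evenly over the exons. On this scale *Stag2* made up 38.2 to 42.2% of the sum of *Stag1* and *Stag2* in pan-BC, 47.0 to 49.4% in ON-BC and 38.0 to 44.5% in OFF-BC. In rods its share was 69.7 to 74.8% and in blue cones 73.4 to 76.9%. On this scale *Stag1* was the larger of the pair in all 9 bipolar libraries and *Stag2* in all 6 photoreceptor libraries. In ON-BC the pair was nearly equal, and the order there depends on the exon lengths. Before division by length, the first ON-BC library had 836 for *Stag2* and 834 for *Stag1*. The shares of ON-BC and OFF-BC did not overlap. With 3 libraries against 3, an exact two-sided permutation test cannot go below p = 0.1, so the shares are a description. The summed level of the pair was 264.9 ± 11.3 normalized counts per kilobase for pan-BC (SD, n = 3), 991.7 ± 136 for rods and 600.5 ± 44.5 for blue cones. Relative to *Smc3*, which every ring holds, the pair stood at 0.380 to 0.471 in bipolar libraries, 0.887 to 1.03 in rods and 0.694 to 0.772 in blue cones. By rank per kilobase *Stag2* was number 8 of the 9 genes in pan-BC and OFF-BC, number 7 in ON-BC and number 3 in both photoreceptor types.

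**Figure D2:**
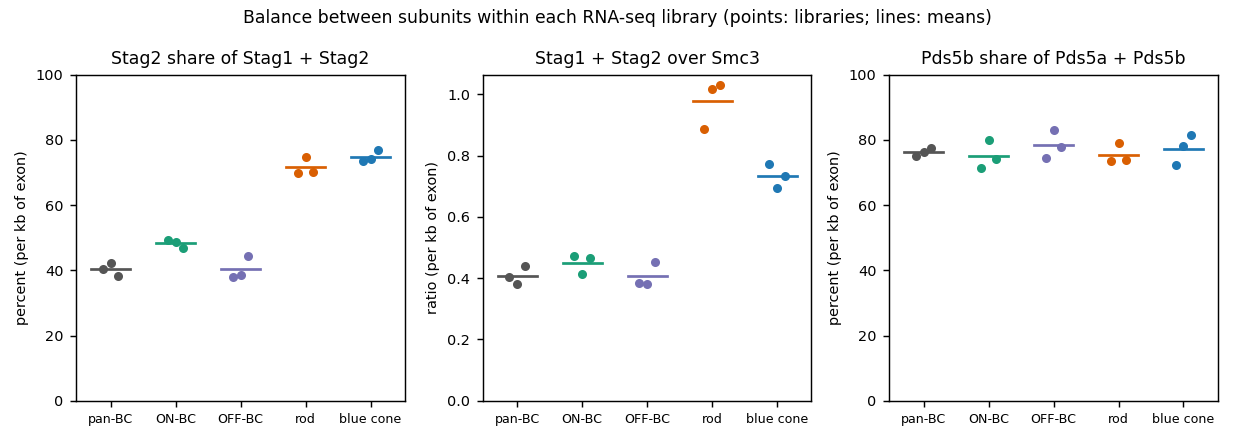
Shares and ratios of subunits within each RNA-seq library, on normalized counts per kilobase of exon, with points for libraries and lines for means. The *Stag2* share of the pair is 38.0 to 49.4% in bipolar libraries and 69.7 to 76.9% in photoreceptor libraries, while the *Pds5b* share of its pair is 71.4 to 83.1% over all libraries.

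The genes of the ring itself varied less. *Smc3* (chr19:53600396-53645831, plus strand) was at 3165, 3247 and 3050.3 for pan-BC, 2712, 3093 and 2415 for ON-BC, 2602, 3286 and 2609.7 for OFF-BC, 4689, 5387 and 4648 for rods and 4045, 3874 and 3992 for blue cones. Both photoreceptor types lay above all bipolar libraries. The difference was -0.63 (SE 0.11, limma adjusted p 7.02e-05) against rods, -0.33 (SE 0.11, limma adjusted p 0.014) against blue cones and 0.30 (SE 0.11, limma adjusted p 0.03) for rods minus blue cones. The last was not called without rod library 2 (0.23, limma adjusted p 0.13), blue cone library 2 (0.29, 0.082) or blue cone library 3 (0.31, 0.055). *Smc1a*, whose product pairs with SMC3 (chrX:152016428-152061973, plus strand), was at 2709, 3102 and 2959.7 for pan-BC, 2631, 3144 and 2370.1 for ON-BC, 2890.2, 3213 and 2871 for OFF-BC, 3099, 3842 and 3171 for rods and 4044, 3843 and 3734 for blue cones. Blue cones stood above all bipolar libraries, and rods overlapped both. Pan-BC were below blue cones, with a difference of -0.41 (SE 0.12, limma adjusted p 0.0042), whereas the difference from rods was -0.20 (95% interval -0.44 to 0.04).

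*Rad21*, whose product closes the ring (chr15:51962604-51991760, minus strand), was at 726, 853 and 923 for pan-BC, 1151, 1012 and 983 for ON-BC, 749.9, 1012 and 1096 for OFF-BC, 796, 812 and 750.0 for rods and 877, 810.4 and 884 for blue cones. ON-BC lay above pan-BC, rods and blue cones and overlapped OFF-BC, and the other populations overlapped. No difference was called against rods, at 0.08 (95% interval -0.20 to 0.36), or against blue cones, at -0.05 (95% interval -0.33 to 0.24), whereas ON-BC were above rods by 0.41 (SE 0.13, limma adjusted p 0.0094). Per kilobase the ratio of *Rad21* to *Smc3* was 0.203 to 0.228 in rods, 0.282 to 0.298 in blue cones and 0.309 to 0.571 in bipolar libraries. The ratio of *Smc1a* to *Smc3* was 0.808 to 0.872 in rods and 1.05 to 1.36 in all other libraries.

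*Ctcf* (chr8:105636538-105682922, plus strand) was at 1244, 1257 and 1332 for pan-BC, 1187, 1421 and 969.6 for ON-BC, 889, 1245 and 1139.9 for OFF-BC, 2091, 2230.0 and 2136 for rods and 1513, 1292 and 1416 for blue cones. Rods stood above all other libraries. Blue cones overlapped pan-BC and ON-BC, and the bipolar populations overlapped one another. The difference of pan-BC from rods was -0.75 (SE 0.14, limma adjusted p 8.35e-05), 1.68-fold higher in rods, and that of rods from blue cones 0.62 (SE 0.14, limma adjusted p 0.001). Between pan-BC and blue cones it was -0.14 (95% interval -0.42 to 0.15). The RefSeq genes *Gm5914* and *Gm5915* overlap *Ctcf* on the opposite strand and share 0 bases of its exons, and no other member overlapped an annotated gene.

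The loader gene *Nipbl* (chr15:8289824-8444463, minus strand) was at 3035, 3245 and 3071 for pan-BC, 2879.9, 3083 and 2471 for ON-BC, 3098, 3495 and 3030.1 for OFF-BC, 4529, 5205 and 5387 for rods and 3093, 2119 and 2337 for blue cones. Rods again stood above all others, and blue cones overlapped the bipolar libraries. The difference of pan-BC from rods was -0.69 (SE 0.13, limma adjusted p 0.00013). Rods minus blue cones was 1.02 (SE 0.13, limma adjusted p 4.82e-06), a 2.003-fold ratio of the means. Pan-BC minus blue cones was 0.33 (SE 0.13, limma adjusted p 0.032), and the call was lost when any 1 pan-BC library or blue cone library 2 or 3 was left out, with limma adjusted p from 0.052 to 0.18. *Mau2*, whose product is the partner of NIPBL, differed from rods in the other direction. It was at 7666, 7048 and 7597 for pan-BC, 7729.6, 2259 and 6047 for ON-BC, 5276, 2171 and 5993 for OFF-BC, 3908, 2820.1 and 3617 for rods and 2861, 1883 and 1662 for blue cones. In ON-BC and in OFF-BC the second library, both taken at day 48, was far below the others. Against rods pan-BC were higher in *Mau2* by 1.12 (SE 0.39, limma adjusted p 0.014) and against blue cones by 1.84 (SE 0.39, limma adjusted p 0.00038).

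*Pds5a* and *Pds5b*, whose products bind the ring, had their lowest means in blue cones. *Pds5a* (chr5:65605719-65698236, minus strand) was at 369, 333 and 323 for pan-BC, 382, 311 and 337 for ON-BC, 295, 254 and 294 for OFF-BC, 408, 376 and 418 for rods and 317, 203 and 202 for blue cones. *Pds5b* (chr5:150673827-150810669, plus strand) was at 903, 868 and 903 for pan-BC, 776, 1000.4 and 781 for ON-BC, 693, 1016 and 839.7 for OFF-BC, 924, 1151 and 955 for rods and 676, 590.4 and 718 for blue cones. For both, blue cones lay below pan-BC and rods and overlapped OFF-BC. Pan-BC were above blue cones by 0.53 (SE 0.17, limma adjusted p 0.0079) for *Pds5a* and by 0.43 (SE 0.14, limma adjusted p 0.011) for *Pds5b*, whose p was 0.058 without the second blue cone library. Rods were above blue cones by 0.76 (SE 0.17, limma adjusted p 0.00084) and by 0.61 (SE 0.14, limma adjusted p 0.0016). From rods, pan-BC differed by -0.23 (95% interval -0.58 to 0.12) and by -0.17 (95% interval -0.48 to 0.13). *Pds5b* made up 75.1 to 77.5% of the sum of the pair per kilobase for pan-BC, 73.6 to 79.0% for rods and 72.4 to 81.4% for blue cones, so that this balance overlapped between cell classes.

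**Figure D3:**
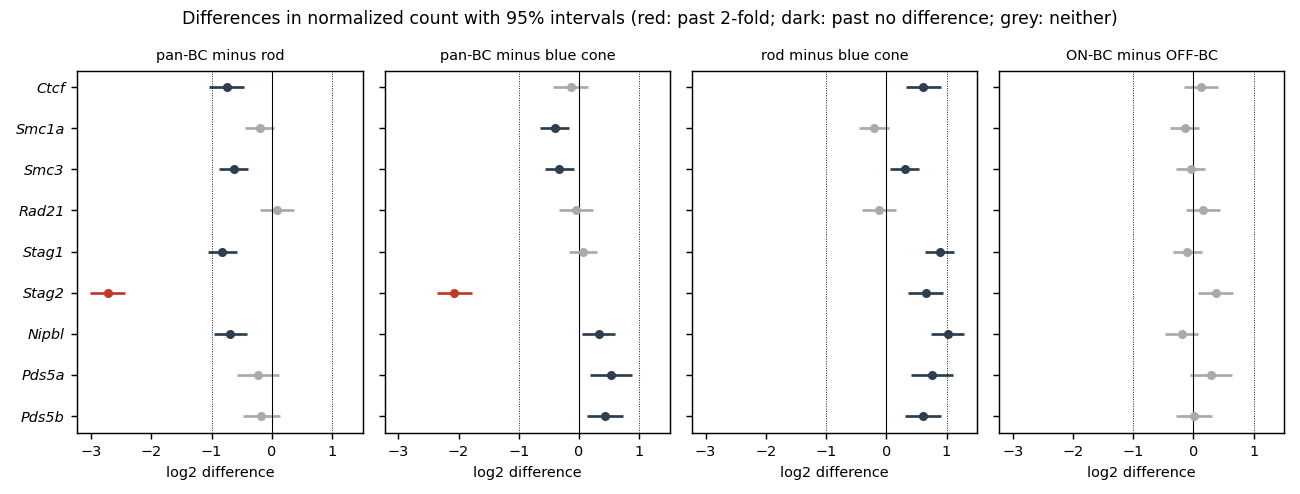
Differences of the 9 genes on the log2 scale (horizontal axes) with 95% intervals, for pan-BC minus rods, pan-BC minus blue cones, rods minus blue cones and ON-BC minus OFF-BC. *Stag2* lies at -2.72 and -2.07 in the first and second comparison, the only values called past 2-fold.

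Counted over the 9 genes, pan-BC against rods gave 5 that were lower in pan-BC (*Stag2*, *Stag1*, *Ctcf*, *Nipbl* and *Smc3*) and 0 that were higher. Of all genes 79.5% were called in this comparison, and 35.4% were lower in pan-BC. Against 2-fold 1 of 9 was called, where 43.6% of all genes were called and 15.8% were lower. The median difference of the 9 was -0.63 and that of all genes 0.21. The libraries did not overlap for 7 of 9 and for 83.7% of all genes. Pan-BC against blue cones gave 3 that were higher (*Nipbl*, *Pds5a* and *Pds5b*) and 3 that were lower (*Stag2*, *Smc1a* and *Smc3*), where 76.3% of all genes were called, 42% higher and 34.3% lower. Against 2-fold *Stag2* alone was called, where 36.3% of all genes were called and 13.7% were lower. Rods against blue cones gave 7 of 9, all higher in rods, where 57.5% of all genes were called and 27.2% were higher in rods. The others were *Rad21*, at -0.12 (95% interval -0.41 to 0.16), and *Smc1a*, at -0.21 (95% interval -0.45 to 0.04), which was called without the second rod library (-0.30, limma adjusted p 0.043). The median of the 9 was 0.62, and that of all genes was -0.0047. Past 2-fold limma called 0 of 9 between rods and blue cones (15.9% of all genes), with 0 at an unadjusted p below 0.05 and 0 by edgeR and DESeq2.

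When libraries were scaled by their totals alone, the median of all genes moved from 0.21 to 0.55 against rods and from 0.16 to 0.43 against blue cones, and the share of 2-fold calls against rods that were higher in pan-BC from 63.8 to 74.0%. *Stag2* was then at -2.38 and -1.79, and the other 4 genes called against rods were still called, with smaller differences. These were -0.47 for *Stag1* (limma adjusted p 0.0038), -0.40 for *Ctcf* (0.031), -0.34 for *Nipbl* (0.040) and -0.29 for *Smc3* (0.044). *Rad21* became higher in pan-BC than in rods (0.43, limma adjusted p 0.018), and *Stag1* higher than in blue cones (0.35, limma adjusted p 0.025). *Smc1a* and *Smc3* were no longer called against blue cones (-0.13 and -0.05, limma adjusted p 0.36 and 0.72), nor was *Smc3* between rods and blue cones (0.24, limma adjusted p 0.12).

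ON-BC set against OFF-BC, with libraries taken as unpaired, gave 0 of the 9 by limma. Of all genes 27% were called and 6.55% were past 2-fold. At an unadjusted p below 0.05 there was 1, *Stag2*, while edgeR called 1 and DESeq2 0. Its difference was 0.37 (95% interval 0.08 to 0.65), with a limma adjusted p of 0.054. All 3 ON-BC libraries lay above all 3 OFF-BC libraries, the nearest being at 698 and 694. Without the third OFF-BC library, which held the most *Opn1sw*, the difference was 0.47 and the limma adjusted p 0.028. *Pds5a* also did not overlap, at 0.29 (95% interval -0.06 to 0.64), and 42.2% of all genes did not. The other 7 overlapped, from -0.19 (95% interval -0.47 to 0.08) for *Nipbl* to 0.15 (95% interval -0.13 to 0.43) for *Rad21*.

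In order of mean normalized count rods came first for 7 of the 9 genes, and the share of all genes with rods first was not counted. The others were *Rad21*, for which ON-BC came first and rods last, and *Smc1a*, for which blue cones came first. With libraries scaled by totals alone, pan-BC minus rods was above 0 for *Pds5a* (0.12) and *Pds5b* (0.17), neither called. Of 36 neighbours in the orders by normalized count limma called 8 as different. Rods were above the next population for *Ctcf*, *Smc3*, *Stag1*, *Stag2* and *Nipbl*, blue cones were above the next for *Smc3* and *Stag2*, and OFF-BC were above blue cones for *Pds5b*. No neighbours of *Rad21*, *Smc1a* or *Pds5a* were called. Neighbours that were both bipolar made up 16 of the 36, of which limma called 0, with 0 at an unadjusted p below 0.05 and 0 by edgeR and DESeq2. As a background, the share of all genes called was 6.08% between pan-BC and ON-BC, 20.8% between pan-BC and OFF-BC, 78.4% between ON-BC and rods, 75.6% between ON-BC and blue cones, 79.3% between OFF-BC and rods and 75.4% between OFF-BC and blue cones.

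The genes whose log2 values followed a member most closely over the 15 libraries were sought among all genes tested. Libraries of a population share their source, so these Pearson correlations are a description. *Stag2* was followed by *Ppp6r3*, *Cep120* and *Xiap*, each with r = 0.994. *Cep120*, which encodes a centrosomal protein, had means of 691 for pan-BC, 4386 for rods and 2636 for blue cones, near those of *Stag2*. *Xiap* encodes an inhibitor of caspases. *Stag1* was followed by *Dcaf17* (r = 0.985), *Gzf1* (0.970) and *Atad2b* (0.969), *Ctcf* by *Crkl* (0.976), *Zfp800* (0.975) and *Zc3h11a* (0.973), and *Smc3* by *Ckap5* (0.979), *Zfml* (0.969) and *Prpf4b* (0.968). For *Nipbl* these genes were *Acin1* (0.965), *Thada* (0.961) and *Cacnb2* (0.959), and for *Smc1a* they were *Akr1b8* (0.907), *Cpsf2* (0.902) and *Socs5* (0.901). *Pds5a* was followed by *Dopey1* (0.928), *Zfp612* (0.920) and *Kdm2a* (0.915), and *Pds5b* by *Nop58* (0.892), *Usp34* (0.880) and *Zfp292* (0.880). *Rad21* had the weakest, with *Ppp2r3d* (0.804), *Trim44* (0.801) and *Rmnd5a* (0.796). Among the members the highest were 0.922 for *Ctcf* with *Stag1* and for *Smc3* with *Stag2*. *Rad21* was below 0 with 7 of the other 8, down to -0.521 with *Smc3*.

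Other genes of the pathway were read from lists. Their counts stand beside the share of all genes called, which was 79.5% between pan-BC and rods, 76.3% between pan-BC and blue cones, 57.5% between rods and blue cones and 27% for ON-BC with OFF-BC. Of 11 genes that load, release, acetylate or cleave cohesin, 9 were tested, of which pan-BC had 1 above and 6 below rods, with a list median of -1.01 beside 0.21 for all genes. *Wapal*, the gene of the release factor WAPL, was at 370.2, 365 and 401 for pan-BC, 328, 405 and 289 for ON-BC, 226, 360.4 and 379.6 for OFF-BC, 1179, 1315 and 1191 for rods and 478, 379 and 443 for blue cones. Rods stood far above all others. The difference was -1.69 (SE 0.18, limma adjusted p 0.0017 against 2-fold) for pan-BC minus rods and 1.51 (SE 0.18, limma adjusted p 0.036 against 2-fold) for rods minus blue cones. *Pttg1*, the gene of securin, had means of 8.13 for pan-BC, 1348 for rods and 1666 for blue cones. Pan-BC minus rods was -7.25 (SE 1.70, limma adjusted p 0.0031 against 2-fold) and pan-BC minus blue cones -7.55 (SE 1.70, limma adjusted p 0.0027 against 2-fold). The SE comes from all populations, and the libraries of ON-BC (382 ± 654, SD, n = 3) and OFF-BC (385 ± 645) varied most. *Naa50*, an acetyltransferase of protein ends, had means of 516 for pan-BC, 1185 for rods and 2006 for blue cones, with -1.96 (SE 0.14, limma adjusted p 1.30e-05 against 2-fold) for pan-BC minus blue cones. *Espl1*, the gene of separase, which cuts RAD21, was low, with means of 7.80 for pan-BC, 7.99 for rods and 59.8 for blue cones. Against blue cones 1 gene of the list was higher and 3 were lower, and rods against blue cones gave 3 and 3. Between ON-BC and OFF-BC *Sgol1*, which protects cohesin at centromeres, was the 1 gene called, with means of 9.82 in ON-BC and 37.5 in OFF-BC.

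Forms of cohesin known from the germline make up a list of 5 genes, of which 2 were tested. *Stag3*, the meiotic counterpart of *Stag1* and *Stag2*, was at 27.7, 28.2 and 51.4 for pan-BC, 9.29, 20.6 and 13.3 for ON-BC, 55.9, 75.7 and 80.6 for OFF-BC, 334, 233 and 304 for rods and 67.7, 33.4 and 47.4 for blue cones. Rods lay above all others, although their level was far below that of *Stag1* and *Stag2*. Pan-BC minus rods was -3.03 (SE 0.35, limma adjusted p 4.61e-05 against 2-fold). ON-BC minus OFF-BC was -2.27 (SE 0.35, limma adjusted p 0.019 against 2-fold), with OFF-BC the higher. *Smc1b*, the germline partner of *Smc3*, had means of 15.8 for pan-BC, 14.0 for rods and 5.20 for blue cones.

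Condensin and SMC5/6 are related rings. Of 8 condensin genes 6 were tested, of which pan-BC had 1 above and 4 below rods, and 1 above and 2 below blue cones, while rods had 3 above and 1 below blue cones. The list median for pan-BC minus rods was -0.57, beside 0.21 for all genes, and 79.5% of all genes were called. *Smc4*, which both condensins contain, had means of 343 for pan-BC, 2318 for rods and 832 for blue cones, and pan-BC minus rods was -2.76 (SE 0.17, limma adjusted p 6.51e-08 against 2-fold). *Ncapd3*, of condensin II, had means of 1342 for pan-BC, 1956 for rods and 698 for blue cones, with 1.51 (SE 0.15, limma adjusted p 0.015 against 2-fold) for rods minus blue cones. Of 6 genes of SMC5/6, pan-BC had 1 above and 2 below rods, and 2 above and 2 below blue cones, where 79.5% and 76.3% of all genes were called. *Ndnl2*, which encodes the subunit NSMCE3, had means of 83.0 for pan-BC, 437 for rods and 404 for blue cones, with -2.39 (SE 0.19, limma adjusted p 3.80e-06 against 2-fold) for pan-BC minus rods. *Smc5* had means of 1003 for pan-BC, 2236 for rods and 1208 for blue cones. *Smchd1*, a related protein that acts at the inactive X, had means of 423 for pan-BC, 943 for rods and 444 for blue cones. Of 7 genes of cell division 2 were tested, and the sum of all 7 was 11.8 to 84.3 in a library.

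Of 12 partners of CTCF at promoters and loops, pan-BC had 4 above and 6 below rods, where 79.5% of all genes were called. The list median was -0.57 and that of all genes 0.21. *Ldb1*, which joins enhancers to promoters, had means of 604 for pan-BC, 65.7 for rods and 159.9 for blue cones, with 3.20 (SE 0.17, limma adjusted p 2.73e-09 against 2-fold) for pan-BC minus rods. *Zfp143*, a promoter-binding zinc finger protein, had means of 372 for pan-BC, 2320.3 for rods and 1273 for blue cones, and *Zfp281* of 880.4 for pan-BC, 2789 for rods and 1562 for blue cones. *Yy1*, which can join promoters and enhancers as a dimer, had means of 112 for pan-BC, 288 for rods and 172 for blue cones. Against blue cones 6 were higher and 6 lower in pan-BC, and rods against blue cones gave 9 and 2. Between ON-BC and OFF-BC *Parp1* was the 1 gene called, with means of 1058 in ON-BC and 692 in OFF-BC. Clustered protocadherins, whose promoters are chosen in neurons with the help of CTCF and cohesin, are 59 genes of the table, of which 56 were tested. In pan-BC 41 were higher and 2 lower than in rods, where 79.5% of all genes were called, and the list median was 2.43 beside 0.21 for all genes. Against blue cones 28 were higher and 5 lower, where 76.3% of all genes were called, and the medians were 0.79 and 0.16. Rods against blue cones gave 3 and 31, and ON-BC against OFF-BC 2 and 0. Their isoforms share exons, so reads may be split among them, and only these counts are given.

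In the ATAC-seq table of 110715 regions of 201 bases, 12 lay at promoters of the 9 genes, with their centre from 1000 bases before to 100 bases after an annotated start, and each gene had at least 1. Peaks lay at all 9 promoters in each of the 14 libraries with peak lists. A library lacked a peak at 2 of the 12 regions at most, which were the outer region of *Stag1* and the second of *Stag2*. Sequences of 3 regions follow, as far as they lie before the annotated start, read from GRCm38 on the plus strand, 5′ to 3′. *Stag1* (chr9:100643279-100643447) and *Stag2* (chrX:42149013-42149213) are shown because their regions differed between cell classes in opposite directions. *Pds5b* (chr5:150673620-150673820) is shown because it alone held the letters taken here as the core of the CTCF motif. These are CC, any 3 bases and AGGGGGC. Forms of the motif that differ from AGGGGGC were not searched, so other promoters may hold them. Capitals mark GGGCGG, the GC box, and CCAAT on either strand in *Stag1* and *Stag2*, and the CTCF core in *Pds5b*.
Stag1 promoter: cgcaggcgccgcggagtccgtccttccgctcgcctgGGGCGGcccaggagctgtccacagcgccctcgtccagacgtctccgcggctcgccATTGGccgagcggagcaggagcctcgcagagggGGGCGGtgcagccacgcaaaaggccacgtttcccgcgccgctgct
Stag2 promoter: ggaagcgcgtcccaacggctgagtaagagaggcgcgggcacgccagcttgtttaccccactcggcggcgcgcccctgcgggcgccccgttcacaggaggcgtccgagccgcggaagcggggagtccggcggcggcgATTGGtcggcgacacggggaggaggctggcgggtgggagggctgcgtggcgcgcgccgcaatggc
Pds5b promoter: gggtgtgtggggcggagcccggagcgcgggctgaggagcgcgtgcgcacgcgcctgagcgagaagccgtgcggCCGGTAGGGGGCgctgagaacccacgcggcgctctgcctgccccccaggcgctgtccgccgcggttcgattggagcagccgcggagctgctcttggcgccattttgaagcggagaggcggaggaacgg

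Both strands of the 12 regions were searched, and as a background those of all 16520 promoter regions of the table, which have the same length. The CTCF core was in 1 of the 12, at chr5:150673693-150673704 in that of *Pds5b*, and in 2.41% of all. GGGCGG was in 8 of 12 and in 60.3% of all, CCAAT in 7 of 12 and in 29.9%, and CCGGAA, the ETS core, in 2 of 12 (*Nipbl* and *Smc1a*) and in 20.2%. TAATCC, which OTX2 and CRX bind, was in 0 of 12 and in 5.87% of all, and AAGATGGC, of the YY1 motif, in 0 and in 3.396%. No match in the 12 overlapped another, and a match describes the letters only.

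Differences in accessibility at the promoters had the sign of those in RNA in some comparisons and not in others. At *Stag1* the region centred at -69 bases from the start had a normalized count of 469.7 and 393 for pan-BC, 389.7 and 370.4 for ON-BC, 419 and 404 for OFF-BC, 893 and 882 for rods, 683 and 638 for blue cones and 635 and 608 for green cones. All 6 photoreceptor libraries lay above all bipolar libraries, and rods were highest. The difference of pan-BC from rods was -1.05 (SE 0.13, limma adjusted p 1.45e-06), with the sign of the RNA, and that of pan-BC from blue cones -0.62 (SE 0.13, limma adjusted p 0.00052), where the RNA of blue cones overlapped that of pan-BC. The outer region of *Stag1*, at -534 bases, was at 52.2 and 61.7 for rods and 86.8 and 104 for blue cones, and its difference of -0.73 (SE 0.27, limma adjusted p 0.042) was opposite in sign to the RNA. The region of *Smc3* at -331 bases was at 341 and 356 for pan-BC, 590.3 and 589.6 for rods and 297 and 292 for blue cones, with -0.76 (SE 0.14, limma adjusted p 0.00013) for pan-BC minus rods. Its region at -26 bases was at 170.4 and 191 for pan-BC and 80.3 and 100.5 for blue cones, and pan-BC were higher by 1.00 (SE 0.20, limma adjusted p 0.0004), opposite to the RNA. The region of *Nipbl* at -215 bases was at 271 and 312 for pan-BC and 303 and 266 for rods, which overlapped, with 0.04 (SE 0.18, limma adjusted p 0.87), whereas the RNA was lower in pan-BC. At *Ctcf* the region at -82 bases was at 311 and 193 for pan-BC, 414 and 371 for rods and 227 and 211 for blue cones, with -0.68 (SE 0.22, limma adjusted p 0.01). At *Pds5b* the region shown above was at 389 and 349 for pan-BC, 605 and 584 for rods and 434 and 439 for blue cones, with -0.69 (SE 0.14, limma adjusted p 0.00031), while its RNA was not called between pan-BC and rods.

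At *Stag2* the promoter regions were more accessible in pan-BC, in which the RNA was lower. The region at -299 bases was at 274 and 404 for pan-BC, 400.1 and 322 for ON-BC, 284 and 195 for OFF-BC, 239 and 192 for rods, 149 and 126 for blue cones and 156 and 183 for green cones. Both cone types lay below all bipolar libraries, and rods overlapped OFF-BC. Pan-BC minus rods was 0.63 (SE 0.22, limma adjusted p 0.017) and pan-BC minus blue cones 1.28 (SE 0.22, limma adjusted p 9.72e-05), both of the opposite sign to the RNA. The second region, chrX:42150392-42150592 at -209 bases from a later start, was at 112 and 129 for pan-BC, 108 and 151 for ON-BC, 82.2 and 70.1 for OFF-BC, 58.4 and 33.2 for rods, 44.0 and 22.4 for blue cones and 53.8 and 31.0 for green cones. All photoreceptor libraries lay below all bipolar libraries there. Pan-BC minus blue cones was 1.90 (SE 0.36, limma adjusted p 0.033 against 2-fold), the one limma call past 2-fold among the 12 regions. In this comparison 35.9% of all regions were past 2-fold. ON-BC lay above OFF-BC in both regions without being called, at 0.61 (SE 0.22, limma adjusted p 0.056) and 0.74 (SE 0.36, limma adjusted p 0.15).

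**Figure D4:**
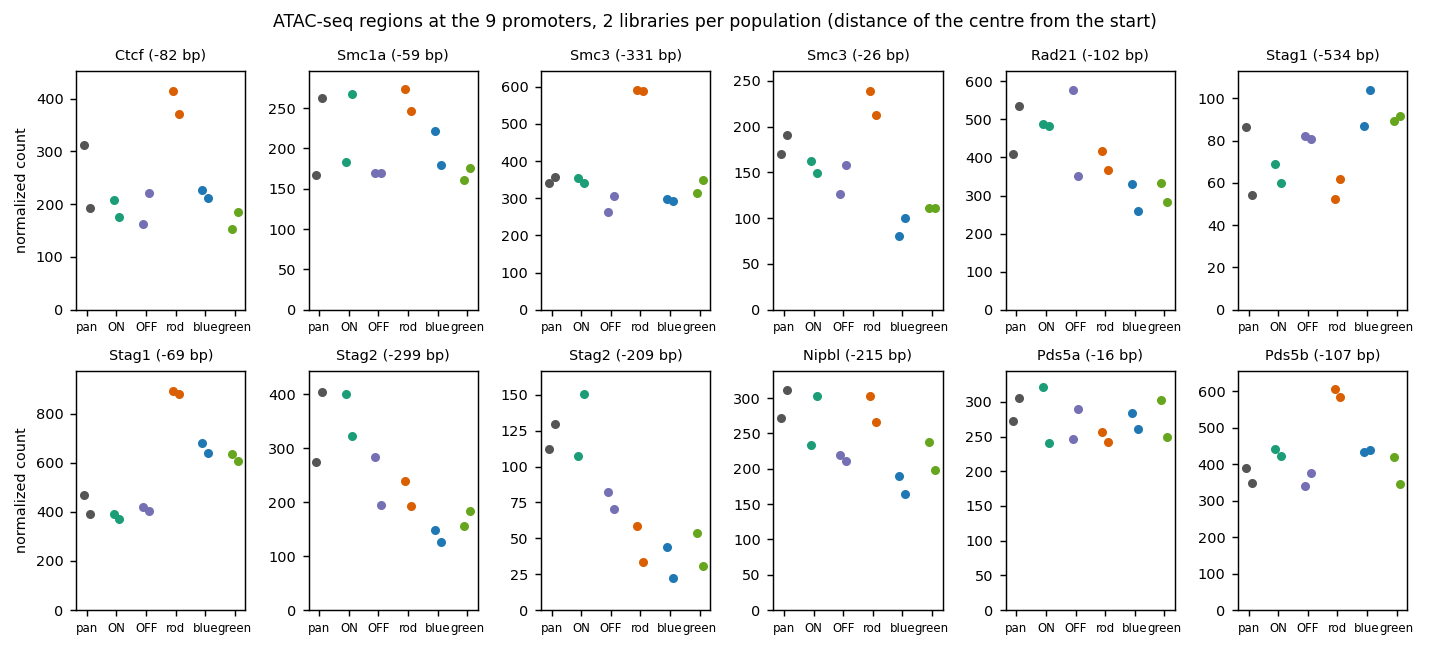
Normalized ATAC-seq counts (vertical axes, from 0) of the 12 promoter regions in 2 libraries of each of 6 populations, titled by gene and by the distance of the centre from the start. The *Stag1* region at -69 bp is at 893 and 882 in rods and at 370 to 470 in bipolar libraries, whereas the *Stag2* regions are higher in pan-BC than in all photoreceptors.

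Of the 12 regions, pan-BC had 2 above and 4 below rods, where 73% of all regions and 71.9% of all promoter regions were called. Against blue cones 5 were higher and 1 lower (61% of all regions and 57.0% of promoter regions), and against green cones also 5 and 1 (60.5% and 52.7%). Rods against blue cones gave 7 higher and 1 lower (34.6% and 49.4%). ON-BC set against OFF-BC gave 0 of the 12 by limma (24.4% and 14.8%), with 1 at an unadjusted p below 0.05 and 0 by edgeR. The median over the 12 was -0.14 for pan-BC minus rods, beside -0.37 for all promoter regions tested and 1.16 for all regions. Within the gene bodies 42 regions were tested. Among these a region of *Ctcf* centred 290 bases after the start, chosen here after its values were seen, was at 146 and 164 for pan-BC and 433 and 444 for rods, with -1.50 (SE 0.17, limma adjusted p 0.011 against 2-fold). In all, 6 gene body regions were past 2-fold higher and 7 lower in pan-BC than in rods, where 51.6% of all regions were past 2-fold.

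Regions that hold these core letters of the CTCF motif are places where CTCF could halt cohesin, although letters alone do not show binding. Sites with other forms of the motif were not counted, so the shares are not those of all CTCF sites. There were 2774 of them, 2.51% of the table, of which 14.3% were promoter regions beside 14.9% of all. A smaller share of them was called than of regions at large. Between pan-BC and rods 34.6% of those tested were past 2-fold, beside 51.6% of all regions, and the medians were 0.50 and 1.16. The shares were 17.9 and 35.9% between pan-BC and blue cones, 14.2 and 32.1% between pan-BC and green cones, 7.67 and 10% between rods and blue cones, and for ON-BC with OFF-BC 0.398 and 7.39%. Without promoter regions they were 36.6 and 55.3% for pan-BC and rods, and 0.380 and 8.48% for ON-BC and OFF-BC. Regions are not replicates, so no test is given. The median normalized count of regions with the letters was 38.8 to 40.4 in the 6 bipolar libraries and 21.0 to 23.3 in the 6 photoreceptor libraries, beside 23.4 to 33.7 and 7.79 to 16.9 for all regions.

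**Figure D5:**
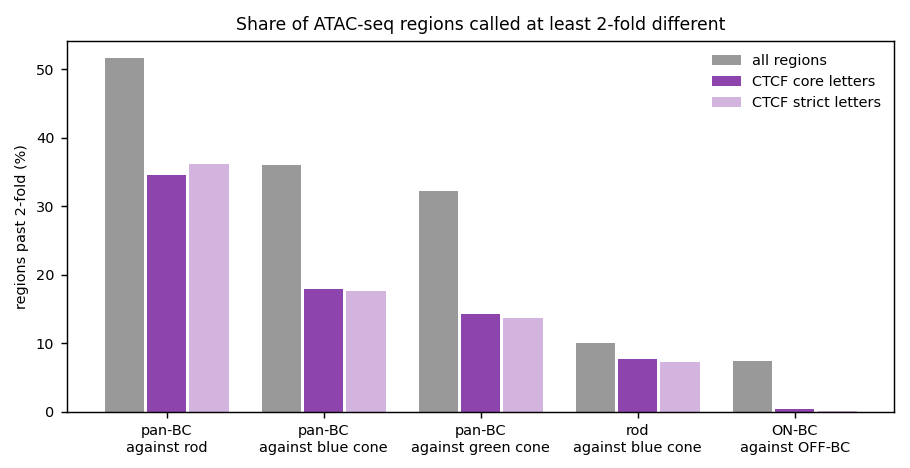
Share of tested ATAC-seq regions called at least 2-fold different (vertical axis, percent) in 5 comparisons, for all regions and for those with the core letters of the CTCF motif or with a stricter form of it. The bars for the core letters are lower than those for all regions in each comparison, with 34.6% against 51.6% for pan-BC and rods and 0.398% against 7.39% for ON-BC and OFF-BC.

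In the peaks that were called in each library, the core letters lay within 100 bases of the summit in 3.44 and 3.72% of peaks for OFF-BC, 2.83 and 2.73% for ON-BC and 3.05 and 2.60% for pan-BC. Rods had 3.62 and 3.58%, blue cones 3.21 and 3.39% and green cones sorted once 2.93 and 2.69%. Libraries differed in their number of peaks, from 29410 to 94468. Among the 20000 strongest peaks of each, a measure chosen after seeing the data, the share was 3.81 and 3.795% for OFF-BC and 2.43 to 3.06% for the 12 other libraries.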

How the data were processed

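For RNA-seq the authors aligned single-end reads to GRCm38 with STAR (2.7.0d) and counted reads per RefSeq gene with HTSeq, from a kit that does not mark strand. ATAC-seq reads were aligned by Bowtie2, stripped of duplicates and of long fragments, and peaks were called per library by MACS2 (2.1.1), with versions from the submitters' processing notes. The deposited signal values are counts divided by 1 size factor per library. The authors' peak files also give a score, a fold enrichment (a ratio over the local background) and −log10 of the p-value and q-value. Only the summits and the order by p-value were used. For genes and regions alike 100% of the values above 0 (230384 for genes, 1212862 for regions) came out as whole reads, within 0.01 of a read, once divided by the step of their library. ATAC-seq libraries held 4176776 to 12345845 reads.

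Genes and regions were kept by filterByExpr of edgeR (4.0.16), which left 14024 of 24062 and 108448 of 110715. limma (3.58.1, R 4.3.3) was fitted to log2(value + 1) over all libraries of an assay with 1 level per population, by treat against a log2 difference of 1 and by eBayes against no difference, with Benjamini-Hochberg adjustment. The 1 that was added understates differences of low genes. Alternatives were edgeR and DESeq2 (1.42.0) on recovered reads, other pseudocounts, filters and scalings, and left-out libraries. The fits were also run on simulated counts with each library drawn independently, and no result given here rests on that run. The members and gene lists were chosen with earlier results of these data known. Named genes are the 9 members, up to 4 called genes per list and comparison with the largest differences, and the 3 genes most correlated with each member. Of the gene names 27 are in the form of a date and were not matched. Summed markers per RNA-seq library were 957 to 3563 for Müller glia, 34.0 to 319 for ganglion cells, 5.82 to 52.6 for horizontal cells, 20.2 to 217 for endothelium and 3.08 to 293 for microglia. Exon lengths and sequences come from RefSeq on GRCm38.p6.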

Additional observations from a re-analysis of the deposited data

How the results depend on the processing

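Over 25 alternative settings and 4 comparisons, 872 of 900 results for single members kept their direction and their side of the threshold, 17 calls were lost, 11 were gained and 0 were reversed. Of values not called, 15 changed sign. *Stag2* was the member called past 2-fold against rods and against blue cones, and this count of 1 was 1 with each library left out. Of the lost calls, 9 were of *Nipbl* between pan-BC and blue cones, with limma adjusted p from 0.052 to 0.18 and 0.12 by edgeR. Between ON-BC and OFF-BC the number of members called against no difference was 0 and became 1, *Stag2*, with a pseudocount of 5, TMM factors or edgeR, and was 0 to 1 with libraries left out in turn (1 without the third ON-BC, the third OFF-BC, the first rod or the second rod library). The replicate block gave 5, 6, 7 and 0 members in the 4 comparisons, as did the fit without it. The block matched libraries by number. Deviations of ON-BC and OFF-BC libraries of the same number had correlations of -0.0763, 0.222 and -0.0649, so the numbers were not taken as pairs. Across numbers, ON-BC 1 with OFF-BC 3 had 0.141 and ON-BC 3 with OFF-BC 1 had 0.212, and the rest had -0.147 to -0.0765. Whether ON-BC and OFF-BC libraries share a source in some other matching was not tested, and no fit with such pairs was made. At the promoters 26 of 60 tests were called, and 18 to 28 with libraries left out in turn. With stricter CTCF letters the median difference moved from 0.50 to 0.59 for pan-BC minus rods, from 0.54 to 0.61 for pan-BC minus green cones and from -0.0254 to -0.0614 for rods minus blue cones, and the cause was not tested. OFF-BC minus ON-BC in the share of peaks with the letters was 0.796 percentage points, and 1.01 in the 20000 strongest peaks, a setting chosen after seeing the data.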

Other observations

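The summed level of the 9 genes per kilobase of exon was 2572 to 2728 for pan-BC, 2226 to 2803 for ON-BC and 2326 to 2843 for OFF-BC. Rods had 3964 to 4699 and blue cones 3184 to 3550.05, so that all photoreceptor libraries lay above all bipolar libraries. The ratio of *Nipbl* to *Mau2* per kilobase ran from 0.283 to 0.329 for pan-BC, from 0.827 to 1.32 for rods and from 0.772 to 1.003 for blue cones. For ON-BC it ran from 0.266 to 0.974 and for OFF-BC from 0.361 to 1.15.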
